A study of Mus musculus with 6 samples.

Results

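The 10 genes described here encode the transforming growth factor-beta (TGF-beta) ligands Tgfb1, Tgfb2 and Tgfb3, the receptors Tgfbr1, Tgfbr2 and Tgfbr3, the latent TGF-beta binding proteins Ltbp1, Ltbp2 and Ltbp3, and the TGF-beta-induced matrix protein Tgfbi. They were taken by gene symbol from the 15803 genes of the expression table, and all 10 were found there. Of the 10 genes, 9 had a mean of at least 1 CPM (counts scaled to a fixed library total) over the libraries and were tested. Tgfb1 did not reach that mean. In E18.5 growth plate cartilage, Ltbp1 and Ltbp2 were higher and Tgfbi was lower in the libraries labelled CKO, and no change of the remaining 6 tested genes passed the threshold.

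RNA-seq was performed on growth plate cartilage of E18.5 mouse embryos in 6 libraries. Embryos with the genotype Hnrnpk fl/fl gave the 3 WT libraries and embryos with Col2a1-Cre;Hnrnpk fl/fl gave the 3 CKO libraries. Both groups thus carried the floxed allele, in which loxP sites flank exons 4 to 7 of Hnrnpk, and the groups differed in the Cre driven by Col2a1, the gene of the main cartilage collagen. Embryos of both sexes were used in the study. The labels do not say whether the libraries of a group came from separate embryos, so the p-values measure the spread between these libraries, which may be technical in part. Hnrnpk encodes an RNA-binding protein, and the comparison addresses which transcripts of the growth plate differ when its gene is deleted in cells of the Col2a1 lineage.

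TGF-beta is secreted in a latent form, bound to the propeptide it is made with. The latent binding proteins Ltbp1 and Ltbp3 are linked to that propeptide and anchor the complex to fibrillin and fibronectin in the matrix, whereas Ltbp2 binds fibrillin microfibrils without holding latent TGF-beta. Once released, the ligand binds the type II receptor kinase Tgfbr2, which activates the type I receptor kinase Tgfbr1, and Tgfbr3 (betaglycan) presents ligand, in particular Tgfb2, to them. The receptors phosphorylate Smad2 and Smad3. In the growth plate, TGF-beta signalling is known to restrain the hypertrophic differentiation of chondrocytes.

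The sequences before the start sites of Ltbp1, Ltbp2 and Tgfbi are shown because these are the genes whose levels passed the threshold. They were taken from RefSeq (GRCm38.p6) and run up to the RefSeq start site, or to the GENCODE gene start where that lies further upstream. Each is written 5' to 3' on the strand of its gene, with capitals marking CAGAC, a core of the Smad-binding element, on either strand (GTCTG is the same motif on the other strand). The Ltbp1 sequence lies at chr17:75005279-75005528 (plus strand), the Ltbp2 sequence at chr12:84876533-84876741 (minus strand) and the Tgfbi sequence at chr13:56609336-56609522 (plus strand). Each lies before the annotated start of its gene in GENCODE M21.
Ltbp1: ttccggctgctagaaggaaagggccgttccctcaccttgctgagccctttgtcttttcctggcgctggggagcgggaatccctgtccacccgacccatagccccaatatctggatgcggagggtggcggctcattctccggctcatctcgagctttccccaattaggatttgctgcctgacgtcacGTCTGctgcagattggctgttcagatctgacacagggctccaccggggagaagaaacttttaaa
Ltbp2: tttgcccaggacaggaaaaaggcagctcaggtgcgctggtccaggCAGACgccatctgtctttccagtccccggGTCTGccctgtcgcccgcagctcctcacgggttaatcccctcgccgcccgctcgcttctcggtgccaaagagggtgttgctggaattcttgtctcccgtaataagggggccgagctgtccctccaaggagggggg
Tgfbi: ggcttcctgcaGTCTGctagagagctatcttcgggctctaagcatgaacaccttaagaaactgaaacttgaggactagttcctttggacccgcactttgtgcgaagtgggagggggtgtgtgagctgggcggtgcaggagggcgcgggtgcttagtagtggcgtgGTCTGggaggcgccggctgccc
CAGAC occurred 1 time in the Ltbp1 sequence and 2 times each in the Ltbp2 and Tgfbi sequences. Over windows of 250 bases before the start site, 10 windows of 8 of the TGF-beta genes were found in the table of RefSeq promoters, since Ltbp1 and Tgfbr1 have a second window each. No entry was found for Tgfb3 and Tgfbr3. CAGAC was present in 8 of these 10 windows and in 42.2% of all 32851 windows of that length. TGANTCA, the AP-1 motif, was in 0 of the 10 windows and in 6.75% of all windows, and GGGCGG, the core of the Sp1 motif, was in 4 of the 10 and in 32.7% of all. Both strands were searched for each motif, each motif was counted on its own whether or not it overlapped another, and a match is a description only.

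The libraries were shallow, with 1153871 to 1454094 reads recovered from the CPM, so that 1 read stood for 0.688 to 0.867 CPM. Hnrnpk itself was at 842, 955 and 944 CPM in the libraries labelled WT and at 759, 949.9 and 780.0 CPM in those labelled CKO, and these ranges overlapped (log2 fold change -0.14, SE 0.15, limma adjusted p = 0.622). Reads of exons outside the deleted part also enter this gene-level value, and it therefore does not check the labels. Of the libraries labelled CKO, CKO 2 stood apart, with a chi-square per degree of freedom of 14.2 and 13.1 against CKO 1 and CKO 3, which differed from each other by 1.29. Similarly, WT 3 stood apart from WT 1 and WT 2 (9.43 and 8.65, against 2.06 between those), while pairs of opposite genotype gave 18.8 to 24.7. The cartilage label held in every library, in that all 14 chondrocyte markers were detected. Their summed level was nevertheless lower in CKO, at 7045 to 7982 CPM against 28921 to 37588 CPM in WT. Of the 14, 12 passed the threshold as lower, against 2.6% of all genes tested. The markers of hypertrophic chondrocytes summed to 1525 to 4647 CPM in WT and to 12412 to 15238 CPM in CKO. Spp1 made up most of that sum and was the 1 called of 6 tested, against 3.18% called higher of all genes. Of the 6, 5 had a log2 fold change above 0, against 50.8% of all genes tested. Without Spp1 the ranges overlapped (435 to 878 CPM and 536 to 3194 CPM). The overlap came through CKO 2, while CKO 1 was at 2967 CPM and CKO 3 at 3194 CPM. In bulk tissue, fewer cells of a type and less RNA per cell cannot be told apart.

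Of the 9 tested TGF-beta genes, 2 were higher and 1 was lower in CKO at an adjusted p under 0.05, by limma on log2(CPM + 1) with Benjamini-Hochberg adjustment over all 12155 genes tested. Over all genes tested, 3.18% were called higher and 2.6% lower, 5.78% together. The study's own rule asks for a log2 change of more than 1 in size and an unadjusted p under 0.05. Ltbp1 and Ltbp2 met it upward and 0 genes met it downward, against 5.3% and 5.1% of all genes, 10.4% together. By limma, the unadjusted p alone was under 0.05 for the same number, 2 higher and 1 lower, against 11.2% higher and 10.1% lower of all genes, and edgeR and DESeq2 each called 2 higher and 1 lower as well. Over all genes that edgeR tested, 4.85% were called higher and 4.71% lower, and of those to which DESeq2 gave an adjusted p, 4.08% were called higher and 3.61% lower. The libraries of the groups did not overlap for 3 of the 9 tested genes, and for 27.7% of all genes, 14.5% with CKO above and 13.2% with CKO below. The median log2 fold change was -0.10 over the 9 genes and 0.01 over all genes tested. Of the 9, 4 had a log2 fold change above 0, against 50.8% of all genes tested.

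**Figure D1:**
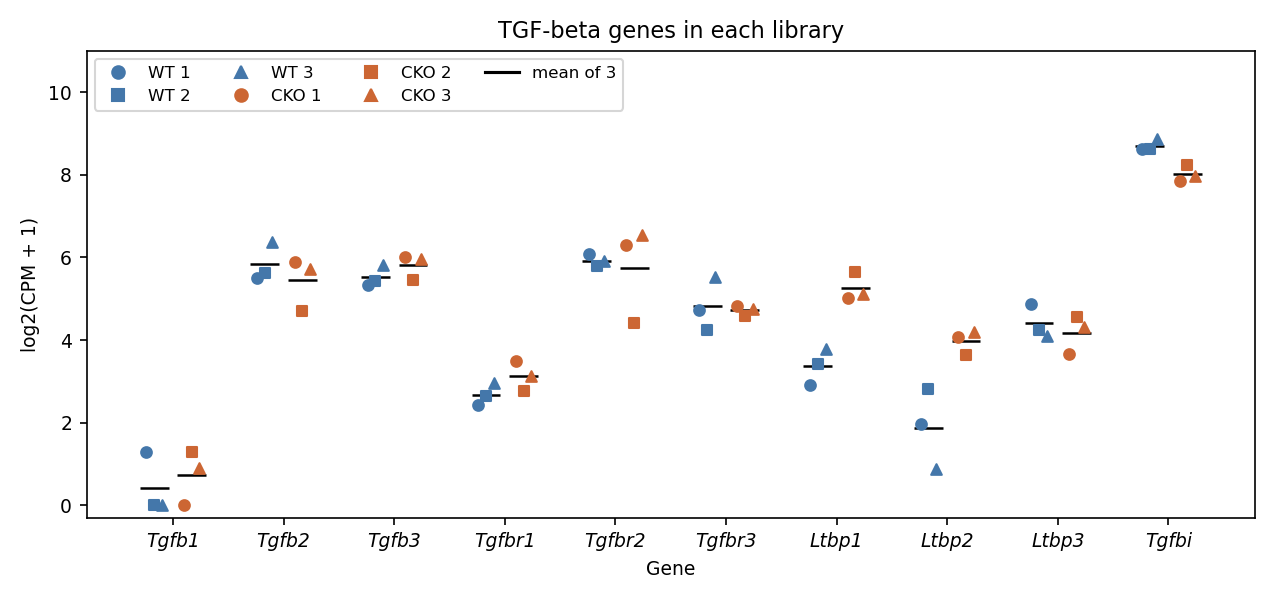
Level of each of the 10 TGF-beta genes in each library as log2(CPM + 1). Points are libraries, with a symbol for each replicate number and a color for each genotype, and bars are the means of 3 libraries. The CKO points lie above all WT points for Ltbp1 and Ltbp2 and below them for Tgfbi, and overlap them for the other genes.

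**Figure D2:**
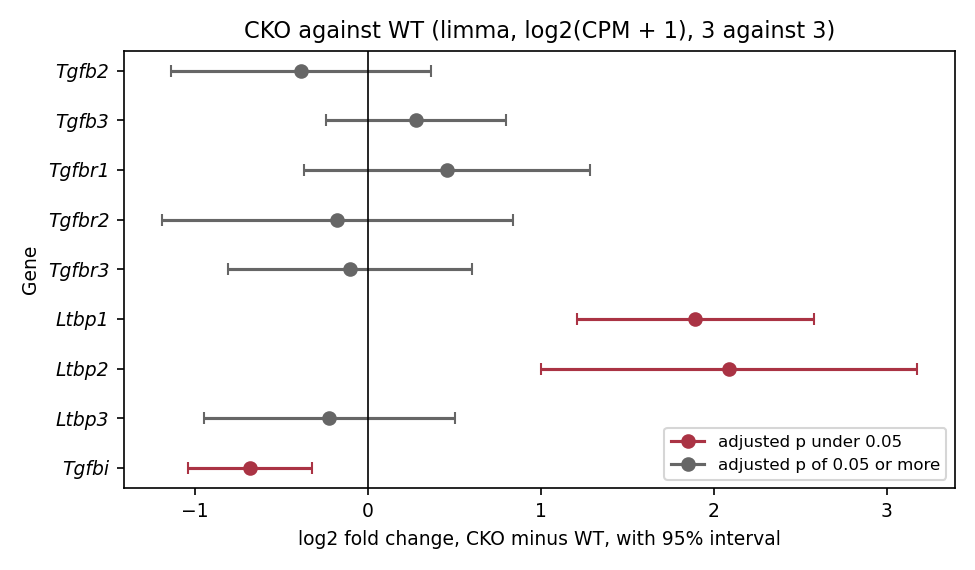
Log2 fold change, CKO minus WT, of the 9 TGF-beta genes tested, on the log2(CPM + 1) scale with 95% intervals from limma (3 against 3 libraries). The intervals of Ltbp1, Ltbp2 and Tgfbi exclude 0 and those of the other 6 genes include it.

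Among the ligands, Tgfb3 and Tgfb2 carried nearly all reads, and no change in either passed the threshold. Tgfb2 (chromosome 1, 186622792 to 186705989, minus strand) was at 44.2, 48.0 and 81.9 CPM in WT and at 58.5, 25.3 and 52.0 CPM in CKO. WT 3 was the highest and CKO 2 the lowest of the 6 libraries, and the other 4 lay between 44.2 and 58.5 CPM. The log2 fold change was -0.38 (SE 0.34, 95% interval -1.14 to 0.37, limma adjusted p = 0.565). Tgfb3 (chromosome 12, 86056745 to 86079041, minus strand) was at 39.1, 42.0 and 55.8 CPM in WT and at 63.3, 42.6 and 61.5 CPM in CKO. CKO 1 and CKO 3 were above every WT library, and CKO 2 lay within the WT range. The log2 fold change was 0.28 (SE 0.23, 95% interval -0.24 to 0.80, limma adjusted p = 0.539). These intervals still hold changes of either sign.

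Tgfb1 (chromosome 7, 25687002 to 25705077, plus strand), the isoform most studied in other tissues, had 2, 0 and 0 reads in WT and 0, 2 and 1 reads in CKO. All 6 libraries were under the floor of 3 reads, which stands for 2.06 to 2.60 CPM, and therefore no fold change was computed. That floor takes account of counting error only.

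Because Tgfb2 and Tgfb3 were read in the same libraries, their ratio does not depend on the scaling between libraries. Levels were divided by the length of all annotated exons of each gene (GENCODE M21), which gives CPM per kilobase. Tgfb2 made up 39.8%, 40.0% and 46.2% of Tgfb2 plus Tgfb3 per kilobase in WT, and 35.1%, 25.7% and 33.1% in CKO. The share was lower in each CKO library than in each WT library, whereas the 95% Wilson intervals of the single libraries overlapped, as for WT 1 (31.4% to 48.7%) and CKO 1 (28.7% to 42.0%). The summed level of the 3 ligands was 23.6 ± 6.11 CPM per kilobase in WT and 24.5 ± 6.30 in CKO (SD, n = 3), and the groups overlapped. The shares and sums were chosen after the values were seen. By two-sided exact permutation test the Tgfb2 share gave p = 0.1 (0.2 adjusted over the 6 shares and sums computed), the smallest p that 3 against 3 libraries allow, and the sums are given as a description.

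None of the 3 receptors passed the threshold by limma, edgeR or DESeq2, or an unadjusted p of 0.05 by limma, where edgeR's filter left Tgfbr1 untested. Tgfbr2 (chromosome 9, 116084293 to 116175360, minus strand), the ligand-binding kinase, was at 66.7, 54.0 and 59.1 CPM in WT and at 77.7, 20.2 and 91.9 CPM in CKO. The WT libraries lay close together, whereas CKO 1 and CKO 3 were the highest of the 6 libraries and CKO 2 was the lowest. The log2 fold change was -0.18 (SE 0.46, 95% interval -1.19 to 0.84, limma adjusted p = 0.864), and it was 0.49 (adjusted p = 0.117) without CKO 2. CKO 2 was also the library with the lowest summed osteoblast markers, 580 CPM against 931 to 1682 CPM in the others. Its summed perichondrial and fibroblast markers were the lowest too, 1053 CPM against 1868 to 4415 CPM. Dcn and Col3a1 make up most of that sum, and without them the gap was small, 113 against 121 to 188 CPM. CKO 2 was the highest library for the summed markers of skeletal muscle (276 CPM), epidermis (907 CPM) and blood (29.6 CPM). The part of these markers in the low Tgfbr2 level of that library was not tested.

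Tgfbr1 (chromosome 4, 47353222 to 47414931, plus strand), the signalling kinase of the complex, was the weakest receptor, at 4.35, 5.25 and 6.76 CPM in WT and 10.3, 5.77 and 7.80 CPM in CKO. The groups overlapped in CKO 2 and WT 3. These values rest on 6 to 15 reads a library, and the log2 fold change of 0.46 (SE 0.37, 95% interval -0.37 to 1.29, limma adjusted p = 0.523) could not be told from 0 at this depth. Tgfbr3 (chromosome 5, 107106570 to 107289629, minus strand), the coreceptor betaglycan, was at 25.4, 18.0 and 44.8 CPM in WT and at 27.5, 23.1 and 26 CPM in CKO. The CKO libraries all lay within the WT range, of which WT 3 was the top (log2 fold change -0.10, SE 0.32, 95% interval -0.81 to 0.60, limma adjusted p = 0.889). Without WT 3 the log2 fold change was 0.24. In the annotation, Tgfbr3 shares 297 exon bases with Gm43422 on the same strand, a gene that is not in the table.

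Per kilobase, Tgfbr2 made up 67.8%, 70.6% and 51.4% of Tgfbr2 plus Tgfbr3 in WT and 69.3%, 41.2% and 73.9% in CKO, so the groups overlapped. WT 3 and CKO 2, the libraries that stood apart in their groups, had the lowest shares. The 3 receptors summed to 12.6 ± 2.47 CPM per kilobase in WT and 12.8 ± 5.20 in CKO (SD, n = 3).

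**Figure D3:**
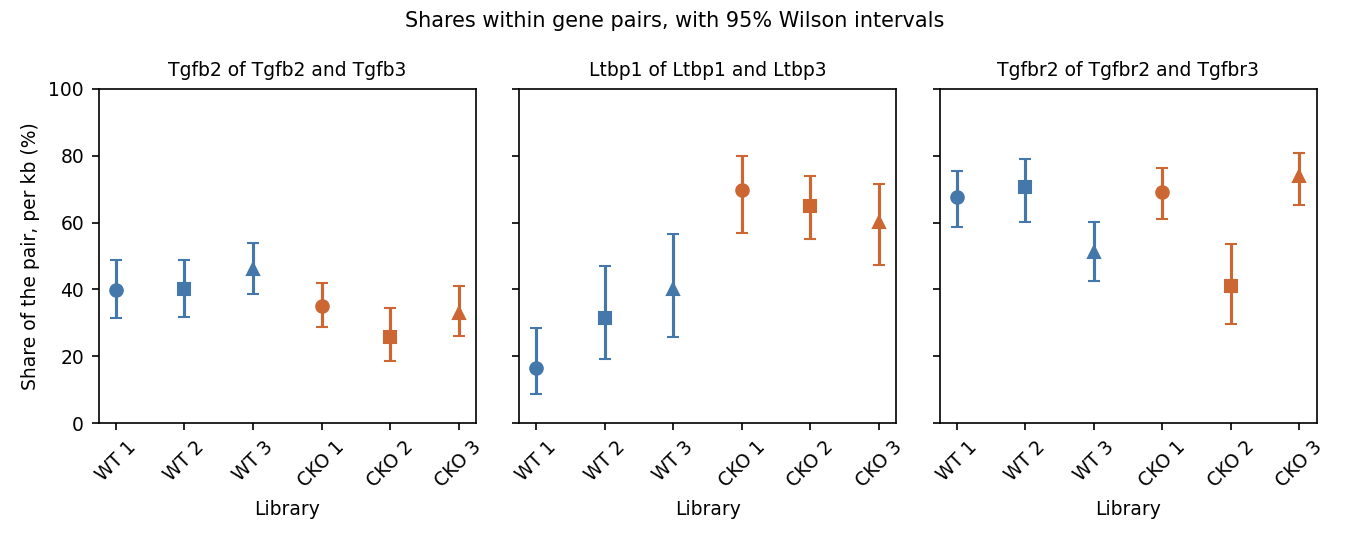
Share of the first gene in the summed CPM per kilobase of a gene pair, in percent, for each library with its 95% Wilson interval (counting error only). For Tgfb2 with Tgfb3 and for Ltbp1 with Ltbp3, no CKO point lies within the WT range. For Tgfbr2 with Tgfbr3 the ranges overlap, with CKO 2 lowest at 41.2%.

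Among the latent binding proteins, Ltbp1 and Ltbp2 were higher in CKO and Ltbp3 did not pass the threshold. Ltbp1 (ENSMUSG00000001870, chromosome 17, 75005568 to 75392512, plus strand) was at 6.52, 9.76 and 12.7 CPM in WT and at 31.6, 49.1 and 33.8 CPM in CKO. Each CKO library was more than 2 times the highest WT library, and CKO 2 was the highest. The means were 9.65 ± 3.08 CPM in WT and 38.2 ± 9.51 CPM in CKO (SD, n = 3), from 37 and 153 reads, a log2 fold change of 1.89 (SE 0.31, 95% interval 1.21 to 2.58, limma adjusted p = 0.0077). With any 1 library left out, the log2 fold change was between 1.67 and 2.10 and the adjusted p was at most 0.0401. When the closest libraries of each group (WT 1 with WT 2, CKO 1 with CKO 3) were summed to 1 sample each, which leaves 2 against 2, it was 1.88 with an adjusted p of 0.129. Of the 10 annotated Ltbp1 transcripts, 1 has a stretch of at least 300 bases that is at least 90% identical to transcripts of 52 other genes.

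Ltbp2 (ENSMUSG00000002020, chromosome 12, 84783212 to 84876532, minus strand) was at 2.90, 6.004 and 0.845 CPM in WT and at 15.8, 11.5 and 17.3 CPM in CKO. Here too each CKO library was above each WT library, but the WT values stand for only 4, 8 and 1 reads and those of CKO for 23, 16 and 20. The log2 fold change was 2.09 (SE 0.49, 95% interval 0.999 to 3.18, limma adjusted p = 0.0357). Its call was lost without WT 1 (adjusted p = 0.115), WT 3 (0.0598), CKO 1 (0.117) or CKO 3 (0.134). The direction was kept in each case, with log2 fold changes of 1.59 to 2.13. Ltbp2 shares 764 exon bases with D030025P21Rik on the opposite strand, a gene that is not in the table. Whether the counting used strand is not given in the sources used here, and reads of the overlap could then not be assigned to one of them.

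Ltbp3 (chromosome 19, 5740904 to 5758532, plus strand), the form most tied to skeletal growth, was at 28.3, 18.0 and 16.1 CPM in WT and at 11.7, 22.4 and 19.1 CPM in CKO. WT 1 was the highest and CKO 1 the lowest, and the other 4 libraries were mixed. The log2 fold change was -0.22 (SE 0.33, 95% interval -0.95 to 0.50, limma adjusted p = 0.744). It was 0.01 without WT 1 and 0.03 without CKO 1, so even its sign rested on single libraries.

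In WT, Ltbp3 was the main latent binding protein per kilobase, with 62.97 ± 11.7% of the sum of Ltbp1, Ltbp2 and Ltbp3 (SD, n = 3). In CKO, Ltbp1 had the highest share with 48.3 ± 5.70%, followed by Ltbp3 with 26.2 ± 4.60% and Ltbp2 with 25.5 ± 7.80%. Ltbp1 made up 16.4%, 31.5% and 40.1% of Ltbp1 plus Ltbp3 in WT and 69.7%, 65.0% and 60.1% in CKO. The groups did not overlap, although the 95% Wilson intervals of WT 3 (25.6% to 56.6%) and CKO 3 (47.3% to 71.6%) did. The 3 genes summed to 3.59 ± 0.513 CPM per kilobase in WT and 7.34 ± 1.14 in CKO, with no overlap. The shares and sums of Ltbp genes follow from the calls above and are a description.

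Tgfbi (ENSMUSG00000035493, chromosome 13, 56609523 to 56639562, plus strand), an adhesive matrix protein named for its induction by TGF-beta, was lower in CKO. It was at 391, 391 and 466 CPM in WT and at 229, 302 and 249.6 CPM in CKO. The highest CKO library, CKO 2, was below the lowest WT library. The means were 416 ± 43.4 CPM in WT and 260.1 ± 37.5 CPM in CKO (SD, n = 3), from 1613 and 1039 reads, a log2 fold change of -0.68 (SE 0.16, 95% interval -1.04 to -0.32, limma adjusted p = 0.0376). It did not meet the study's criterion for size. The call was lost without WT 1 (adjusted p = 0.115), WT 2 (0.114), WT 3 (0.0800), CKO 1 (0.158) or CKO 3 (0.144), with log2 fold changes of -0.72 to -0.59, and was kept without CKO 2 (-0.79, adjusted p = 0.00537). The summed chondrocyte markers moved the same way, as given above. The perichondrial and fibroblast markers summed to 2842 to 4415 CPM in WT and 1053 to 1915 CPM in CKO. Of the 10 tested, 1 (Dcn) passed the threshold as lower, against 2.6% of all genes. Without Dcn and Col3a1 the ranges overlapped (121 to 188 CPM and 113 to 135 CPM). Of the 10, 8 had a log2 fold change below 0 and 2 above, against 50.8% above 0 over all genes. For 5 (Dcn, Col3a1, Col14a1, Fbln1 and Dpt) every CKO library was below every WT library, against 13.2% of all genes. For Prrx1 and Twist1, with log2 fold changes of 0.98 and 0.44 that did not pass, every CKO library was above, against 14.5%. The part of these markers in the result was not tested.

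**Figure D4:**
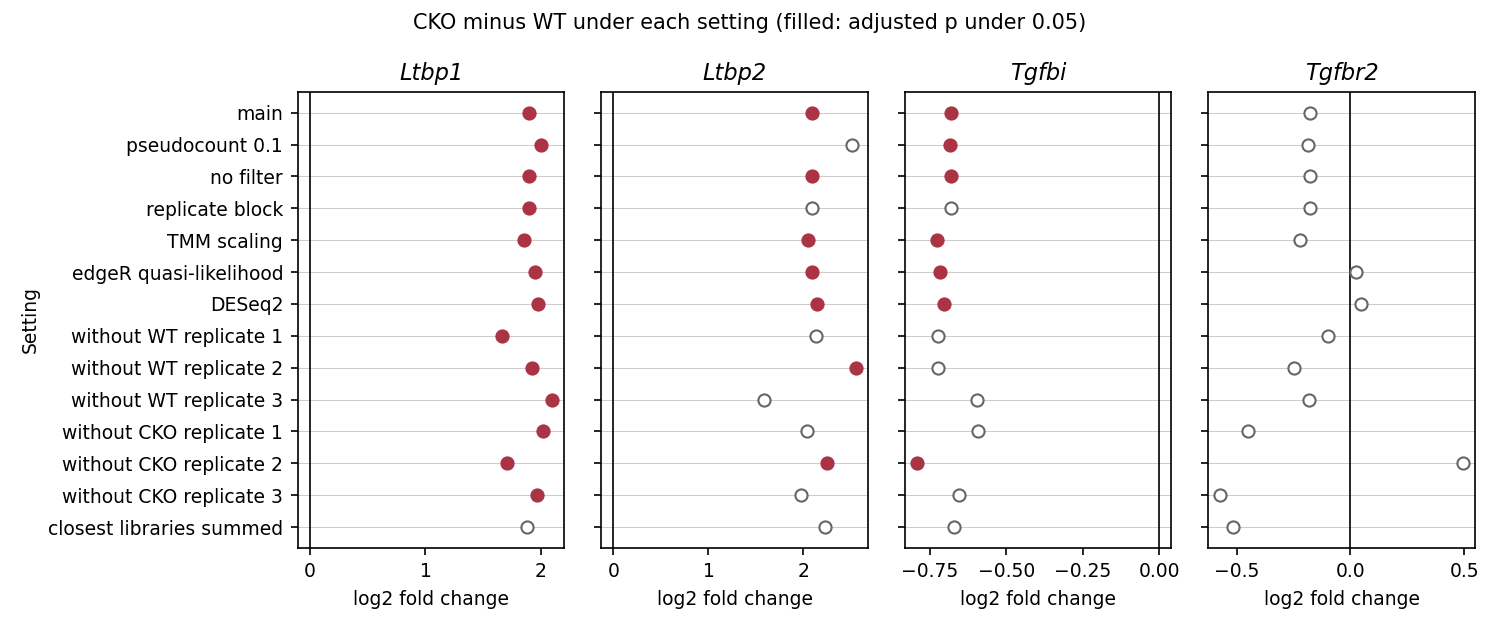
Log2 fold change, CKO minus WT, of Ltbp1, Ltbp2, Tgfbi and Tgfbr2 under the reported setting and 13 alternatives. Filled points have an adjusted p under 0.05. Ltbp1 is filled in all settings but the one with the closest libraries summed, Ltbp2 and Tgfbi lie on one side of 0 throughout but are filled in 7 of the 14 settings each, and Tgfbr2 lies on both sides of 0 and is never filled.

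In WT, the order of the 10 genes by CPM per kilobase was led by Tgfbi at 110.4, followed by Tgfb3 at 13.5, Tgfb2 at 10.03, Tgfbr2 at 7.32, Tgfbr3 at 4.49, Ltbp3 at 2.29, Ltbp1 at 0.903, Tgfbr1 at 0.835, Ltbp2 at 0.397 and Tgfb1 at 0.0958. Of neighbours in this order, Tgfbi and Tgfb3, and Ltbp3 and Ltbp1, had separate ranges over the 3 WT libraries. All other neighbours had overlapping ranges. Read within single WT libraries, Tgfb2 and Tgfbr2 changed order, as did Ltbp1 and Tgfbr1. The remaining neighbours kept their order in every WT library, some of them on few reads. These differences were not tested.

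The wider pathway was described with 4 lists, for latency and activation, for coreceptors and extracellular modulators, for Smads and intracellular regulators, and for genes known to respond to TGF-beta. The lists share 5 genes, and Ltbp2 and Tgfbi are themselves on the response list. Of the 87 different genes tested, 13 were higher in CKO (14.9%) and 5 were lower (5.75%), against 3.18% and 2.6% of all genes. The median log2 fold change was 0.42, against 0.01 over all genes. The lists were chosen with earlier results of these data known, so these shares and medians are a description only. Without Ltbp2 and Tgfbi, 12 of 85 were higher and 4 lower. These numbers depended on single libraries, with 23 genes higher without CKO 2 and 8 higher without CKO 1 or without CKO 3. Calls over all genes moved the same way, from 387 higher to 692 without CKO 2, 133 without CKO 1 and 123 without CKO 3. With the closest libraries summed, 1 was higher and 0 were lower by limma, against 5 higher and 6 lower of all 12204 genes in that fit. At an unadjusted p under 0.05 there were 19 and 10 of 88, against 6.27% and 6.15% of all genes in it.

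Of the 38 response genes tested, 12 were higher and 2 lower, against 3.18% and 2.6% of all genes. The median of their log2 fold changes was 0.68, against 0.01 over all genes. Timp1, an inhibitor of matrix metalloproteinases, had the smallest p of them. It was at 300.1, 311 and 413 CPM in WT and at 1681, 1746 and 1670.0 CPM in CKO (log2 fold change 2.33, SE 0.16, limma adjusted p = 8.23e-05). Its CKO libraries lay close together, CKO 2 included. Plaur, the receptor of urokinase, rose from 29.5 ± 11.1 to 161 ± 40.7 CPM (SD, n = 3; log2 fold change 2.44), and Prg4, the lubricin of joint surfaces, from 4.34 ± 1.40 to 47.4 ± 15.3 CPM (3.16).

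Several of the other response genes that rose are known to answer to more than one pathway. Cdkn1a, a cell cycle inhibitor that is also a target of p53, rose from 393 ± 124 to 1669 ± 235 CPM (SD, n = 3; log2 fold change 2.13, limma adjusted p = 0.0013). Ccn1, a matricellular protein that is also a target of YAP, rose from 254 ± 74.8 to 985 ± 153 CPM (1.99, adjusted p = 0.00159). Id3, an inhibitor of basic helix-loop-helix factors known mainly as a BMP target, rose from 712 ± 54.4 to 1901 ± 448 CPM (1.39, adjusted p = 0.00263). Hmga2, a chromatin protein, had a log2 fold change of 2.48, Junb, an AP-1 subunit, 1.33, and Timp3, named after its values were seen, 1.72. Junb lost its call without WT 2, CKO 1 or CKO 3 (limma adjusted p = 0.0599 to 0.064), and Timp3 without any library but CKO 2 (0.0709 to 0.112). Col1a2, a chain of type I collagen, fell from 605 ± 146 to 283 ± 62.0 CPM (log2 fold change -1.09, adjusted p = 0.0191), and lost its call without WT 2 (0.0863) or CKO 3 (0.0594). Col3a1, the gene of the list with the second highest level, was at 1165 ± 354 CPM in CKO and 2240.1 ± 622 CPM in WT (-0.96, adjusted p = 0.0576), and did not pass the threshold. It passed in 3 of the 13 alternatives, among them the fit without CKO 2 (limma adjusted p = 0.0485).

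Epidermal markers summed to 52.4 to 76.1 CPM in WT and to 432 to 907 CPM in CKO, with CKO 2 highest. Of the 5 tested, 3 were called higher, against 3.18% of all genes. The defining keratins Krt5 and Krt14 are not in the table, and Krt1, Krt15, Lor and Dsp had at most 3 reads in every library. Markers of skeletal muscle (46.5 to 209 CPM in WT, 108 to 276 CPM in CKO), endothelium (8.70 to 17.3 CPM and 9.63 to 18.2 CPM) and blood (0.845 to 5.25 CPM and 2.06 to 29.6 CPM) overlapped between genotypes. The macrophage and osteoclast markers overlapped in sum (154 to 390 CPM and 293 to 313 CPM) through Lyz2 in WT 3 (270.3 CPM), and without Lyz2 they were at 102 to 120.0 CPM in WT and 182 to 198 CPM in CKO. Of the 8 tested, 8 had a log2 fold change above 0, against 50.8% of all genes tested. Of these, 1 was called higher, against 3.18% of all genes, namely Cd68 (2.74, limma adjusted p = 0.00114). The 7 others, at 0.16 to 1.49, did not pass the threshold. The part of these markers in the response genes that rose was not tested.

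Among the coreceptors and modulators, 1 of 12 genes was higher and 3 were lower, against 3.18% and 2.6% of all genes. The median of the log2 fold changes was -0.43, against 0.01 over all genes. The proteoglycan Dcn (decorin), which binds TGF-beta, was at 1025, 1078 and 1312 CPM in WT and at 389, 183 and 396 CPM in CKO (log2 fold change -1.89, SE 0.27, limma adjusted p = 0.00429). CKO 2 was the lowest, and the groups were far apart. Dcn is also on the list of perichondrial and fibroblast markers. Fmod (fibromodulin), a related proteoglycan, fell from 665 ± 96.0 to 286 ± 103 CPM (SD, n = 3; log2 fold change -1.28, adjusted p = 0.0222). Nrep was lower as well (-2.29, adjusted p = 0.0331), with WT 3 at 219 CPM and the other WT libraries at 51.8 and 54.4 CPM. Nrp1 (neuropilin 1), a coreceptor of VEGF and semaphorins that also binds TGF-beta, rose from 11.4 ± 1.72 to 35.01 ± 14.9 CPM (1.45, adjusted p = 0.0392). Fmod lost its call without WT 1, WT 2 or WT 3 (limma adjusted p = 0.0588 to 0.102), and Nrep (0.0507 to 0.127) and Nrp1 (0.0636 to 0.153) without any library but CKO 2. Bgn (biglycan), the gene of the list with the highest level, had 1573 ± 303 CPM in WT and 1360.5 ± 238 in CKO (-0.21, adjusted p = 0.575).

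In the list for latency and activation, 6.25% of the 16 genes tested were called higher, against 3.18% of all genes. The gene called was Fn1 (fibronectin), in which the latent complexes are deposited. It was at 929, 1071 and 1496 CPM in WT and at 2796, 1778 and 2300.1 CPM in CKO (log2 fold change 0.98, SE 0.21, limma adjusted p = 0.0267), and it lost its call without WT 1 (adjusted p = 0.13), WT 2 (0.121), CKO 1 (0.112) or CKO 3 (0.106). Fn1 also counts among the response genes. Ctsd (cathepsin D), with the highest level in the list, was at 2363, 2531 and 2419 CPM in WT and at 4813, 2671 and 4778 CPM in CKO (0.69, adjusted p = 0.0923). It passed in 2 of the 13 alternatives, among them the fit without CKO 2 (0.98, limma adjusted p = 0.00049). By limma, 0 genes of the list were called lower, against 2.6% of all genes. The number was also 0 by edgeR and DESeq2, against 4.71% and 3.61% of all genes. At an unadjusted p under 0.05 by limma, 4 of the 16 were higher and 1 was lower, against 11.2% and 10.1% of all genes.

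Of the 26 Smads and intracellular regulators, 0 passed the threshold in either direction by limma, by edgeR, whose filter left 14 of them, or by DESeq2. By limma, 4 with a log2 fold change above 0 and 1 below had an unadjusted p under 0.05, of 26 and against 11.2% and 10.1% of all genes, and the median log2 fold change was 0.19. Nearest to the threshold was Smurf1, a ubiquitin ligase that targets Smads and receptors, named after its values were seen (log2 fold change 1.63, adjusted p = 0.0530), at 1 read in each WT library and 5 to 7 reads in those of CKO. Fkbp1a, which binds the type I receptor, averaged 632 ± 87.5 CPM over the WT and 645 ± 120 CPM over the CKO libraries (SD, n = 3; 0.02, adjusted p = 0.962). Strap, a receptor-associated protein, was at 101 ± 19.6 and 116 ± 8.62 CPM (0.21, adjusted p = 0.560).

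**Figure D5:**
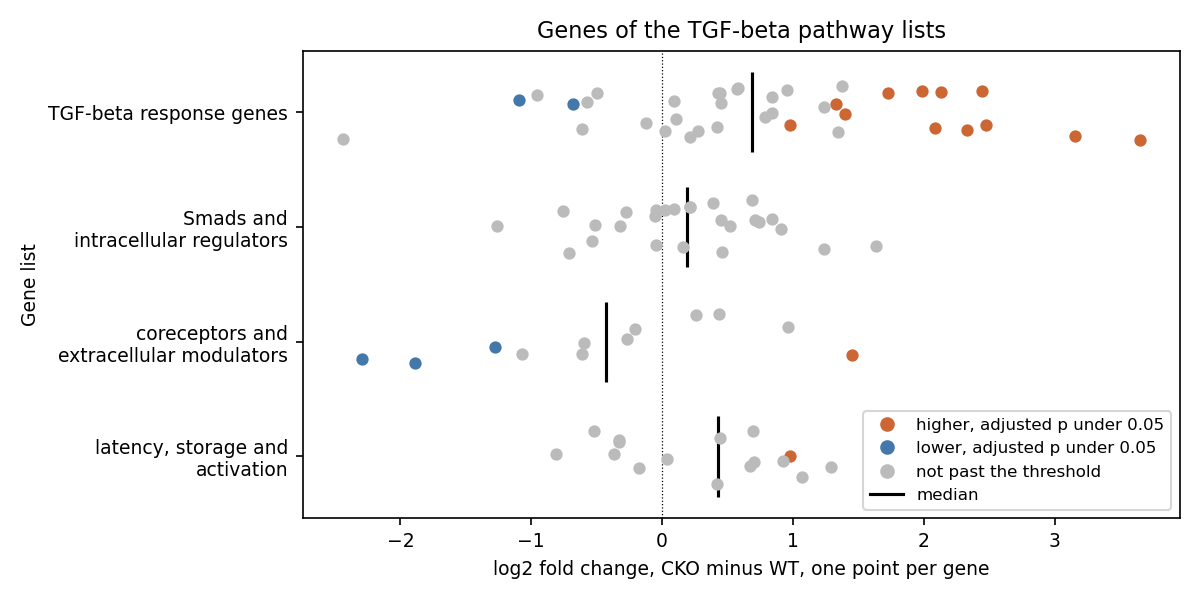
Log2 fold change, CKO minus WT, of each tested gene of the 4 TGF-beta pathway lists, with vertical bars at the medians and colors for genes at an adjusted p under 0.05. The response list holds 12 of the colored points above 0 and 2 below, and the Smad list holds none.

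The genes with the pattern nearest to those of Ltbp1, Ltbp2 and Tgfbi were sought among 6827 genes that averaged 10 CPM or more, by the root mean square difference of log2(CPM + 1) centred on each gene's mean over the 6 libraries. For Ltbp1 these were S100a6 (0.13), Slc20a1 (0.19) and Il4ra (0.21). S100a6, a calcium-binding protein, was at 330, 405 and 480 CPM in WT and at 1492, 2108 and 1473 CPM in CKO, also with CKO 2 highest. For Ltbp2 they were Agfg1 (0.27), Anxa3 (0.27) and Ube2m (0.30), and for Tgfbi they were Parp1 (0.06), Azi2 (0.08) and Bbip1 (0.08). Parp1, an enzyme of DNA repair, was at 41.3, 42.0 and 45.6 CPM in WT and at 23.4, 32.5 and 24.3 CPM in CKO, with CKO 2 nearest to WT as for Tgfbi. With 6 libraries the likeness is a description.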

How the data were processed

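The authors deposited 1 table of CPM per gene for the 6 libraries, made from TRIzol-extracted RNA with a stranded mRNA kit (VAHTS, v2). The submitters' processing notes name cutadapt (2.5), HISAT2 and featureCounts (1.6.3), and the genome build and annotation are not given in the sources used here. 100% of the values were whole multiples of 1 read (tolerance 0.001 reads). 15212 of 15217 Ensembl identifiers were found in GENCODE M21 (GRCm38), the source of positions and exon lengths. 22 symbols read as dates in the table.

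Log2(CPM + 1) was fitted on genotype with limma (3.58.1, R 4.3.3; mean-variance trend) over the 12155 genes that averaged 1 CPM or more, with Benjamini-Hochberg adjustment over all of them. A fold change on this scale understates that of low genes. Alternatives were a pseudocount of 0.1, no filter, TMM scaling, a replicate block, each library left out, and edgeR's quasi-likelihood test (4.0.16) and DESeq2 (1.42.0) on the recovered reads. A fit with the closest libraries summed was added after the data were seen. The fits were tested on simulated data.

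The TGF-beta genes and the gene lists were chosen with earlier results of these data known. Named genes are the 10 TGF-beta genes, Hnrnpk, up to 10 genes past the threshold by smallest p and the 2 with the highest level in each pathway list, and the 3 genes nearest in pattern to each called TGF-beta gene. Some results that fall under this rule are not reported here. Near-identical transcripts were sought with BLAST (2.17.0).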

Additional observations from a re-analysis of the deposited data

How the results depend on the processing

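Ltbp1 was higher in 13 of 13 alternatives and past the threshold in 12 of them. Ltbp2 and Tgfbi kept their direction in 13 of 13 and lost their call in 7 each. The number of TGF-beta genes higher in CKO fell from 2 to 1 with a pseudocount of 0.1 and was 1 to 2 with a library left out. The number lower was 0 to 1 with a library left out. In the pathway lists, 8 to 23 genes were higher and 1 to 7 lower with a library left out, and these numbers were 1 and 0 with the closest libraries summed, against 13 and 5. That fit, which leaves 2 samples a group and was added after the data were seen, called 0 TGF-beta genes higher and 0 lower by limma (2 and 1 at an unadjusted p under 0.05) and 5 higher and 6 lower of all genes. Over all genes 692 were higher and 606 lower without CKO 2, against 387 and 316 with all libraries and 123 to 322 higher and 79 to 221 lower without any other library. TMM scaling moved the split of calls to 330 higher and 349 lower.

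Among the TGF-beta genes tested, Hnrnpk, the named pathway genes and the genes nearest in pattern, those that changed sign in some alternative were Tgfbr2, Tgfbr3, Ltbp3 and Fkbp1a, none of which passed the threshold in any of the fits. The log2 fold change of Tgfbr2 was 0.024 with edgeR and 0.047 with DESeq2, and ran from -0.57 to 0.49 with a library left out (0.49 without CKO 2). That of Tgfbr3 ran from -0.39 to 0.24 (0.24 without WT 3), and that of Ltbp3 from -0.41 to 0.033 (0.0095 without WT 1, 0.033 without CKO 1). Fkbp1a was at -0.024 with TMM scaling, at -0.011 with edgeR and between -0.12 and 0.14 with a library left out (-0.099 without WT 2, -0.12 without CKO 2). The causes were not tested.

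With a replicate block, 1 TGF-beta gene was higher (Ltbp1, adjusted p = 0.0217) and 0 were lower, Ltbp2 (0.0720) and Tgfbi (0.0801) missing the threshold, and of the pathway lists 11 genes were higher and 3 lower, Nrep and Nrp1 losing their calls. At an unadjusted p under 0.05 the block gave 2 higher and 1 lower TGF-beta genes by limma. The labels do not say whether libraries with the same number are paired, while the study compared mice with littermates. Deviations of libraries with the same number correlated at 0.07, -0.21 and -0.15 over 6827 genes, and no library correlated best with its own number. These values cannot decide on pairing, since deviations were taken within groups of 3 in which WT 3 and CKO 2 stood apart. Over all genes the block gave 225 higher and 160 lower.

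Of the named pathway genes, Timp1 was past the threshold in all 13 alternatives, and Dcn, Prg4, Cdkn1a, Ccn1, Plaur, Id3 and Hmga2 in all but the fit with the closest libraries summed. Junb, Col1a2, Fmod, Fn1, Timp3, Nrep and Nrp1 lost their calls without some single libraries, with adjusted p of 0.0507 to 0.153. Col3a1 gained a call in 3 alternatives and Ctsd in 2, among them the fit without CKO 2 (limma adjusted p = 0.0485 and 0.00049). Depth limits Tgfb1, Tgfbr1, Ltbp2 and Smurf1 most, for which 1 read is a visible step.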
